A study of Mus musculus with 6 samples.

Results

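Cells with high PDGFRA transcript signal were described in fetal mouse intestine and compared between 3 sets of cell barcodes. A cell was a member when its barcode ended in _2, it had at least 1000 detected genes and at most 5% mitochondrial UMIs, and it carried at least 2 UMIs of Pdgfra and at least 3 summed UMIs of Foxl1, Bmp3, Bmp5, F3, Ednrb and Sox6. UMIs (unique molecular identifiers) count captured transcript molecules. The rule picked 1308 of the 7187 cells whose barcode ended in _2, out of 13127 cells in the whole matrix. By suffix these were 187 cells in -1_2, 230 cells in -2_2 and 891 cells in -3_2.

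The study profiled intestines of Pdgfra-H2BGFP embryos on a C57/BL6 background, in which the Pdgfra locus drives a nuclear green fluorescent protein. All 6 samples share this reporter, and embryos and segments were pooled after marking with lipid-bound barcodes (MULTI-seq). Embryos of E15.5 with E16.5, and of E13.5 with E14.5 and E18.5, were each run as 2 wells of live cells without DAPI or Ter119 signal and 1 well enriched for cells positive for CD31, CD45 or Epcam or with a high reporter signal. Libraries were made with the 10x 3' v3 chemistry, and 35000 cells were loaded per well. No label ties a suffix to a sample, so which suffix was sorted, and the ages, gut segments and embryos in each, are unknown. Sorting, age, segment, embryo and lane therefore cannot be told apart in any difference between suffixes, the matrix counts as 1 sample without replicates, and no p-value is given. Intervals are exact, at 95%, and cover counting error only.

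PDGFRA-high mesenchymal cells of the fetal gut lie directly beneath the epithelium, gather into clusters where villi form, and send BMP and other signals to the epithelium. They receive Hedgehog ligands from the epithelium. Smooth muscle, the other large mesenchymal lineage of the gut wall, is recognised by contractile proteins such as smooth muscle actins, calponin and desmin.

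The members made up 8.40% of 2226 kept cells in -1_2 (7.28% to 9.63%), 9.13% of 2518 in -2_2 (8.04% to 10.3%) and 40.5% of 2202 in -3_2 (38.4% to 42.5%). The rule cuts a range and does not mark a type. Just inside it, with 2 Pdgfra UMIs or 3 marker UMIs, were 108, 131 and 447 members of -1_2, -2_2 and -3_2. Just outside were 223, 275 and 632 cells, nearly all with 1 Pdgfra UMI. Median UMIs per member were 3921, 3674.5 and 3635, and median genes 1694, 1584 and 1666, so depth was similar. The median mitochondrial share was 2.07% and 2.19% in -1_2 and -2_2 and 2.95% in -3_2. One barcode was shared between members of -1_2 and -3_2.

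**Figure D1:**
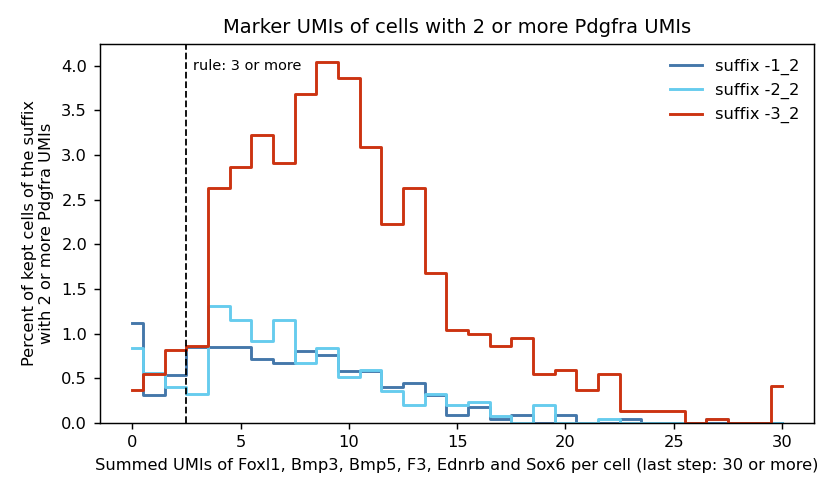
Distribution of the summed UMIs of the 6 marker genes (x axis, UMIs per cell) among cells with 2 or more Pdgfra UMIs, as a percentage of the kept cells of each suffix (y axis). Each line is 1 suffix and the dashed line is the limit of the rule. The -3_2 line lies above both others from 4 to 25 marker UMIs, and is level with -1_2 at 3.

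The genes of the rule chose the members, so their levels are given as a description. Levels are given as CPM, the UMIs of a gene summed over the members of a suffix, divided by all their UMIs and scaled to 1000000. Pdgfra, the receptor that gives the cells their name, stood at 615.4 CPM in -1_2, 682.2 in -2_2 and 769.5 in -3_2. Ednrb, an endothelin receptor, stood at 1246, 1336 and 1882 CPM. Bmp3 stood at 393, 469 and 482 CPM, and Bmp5, another BMP ligand, at 93.9, 90.7 and 130.1 CPM. Foxl1, a forkhead factor of subepithelial cells, stood at 60.2, 74.4 and 76.9 CPM. Sox6 was at 39.7, 73.3 and 83.6 CPM, and F3, the coagulation tissue factor, at 27.7, 29.5 and 34.4 CPM. All 7 were highest in -3_2. The median member carried 2, 2 and 3 Pdgfra UMIs and 8, 7 and 10 marker UMIs.

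Members of -3_2 differed from those of both other suffixes mainly by very low Actg2, Cnn1 and Stmn2 and lower levels of other contractile genes. Cell cycle transcripts were also lower, and a small mixed group that included Slc12a2 and Pcsk6 was higher. Among 5779 genes with a mean of at least 20 CPM, 37 (0.64%) were at least 2-fold lower and 22 (0.381%) at least 2-fold higher in -3_2 than in both others. Under median-ratio scaling, which shifted the ratios by a median of -0.108 and -0.120 log2, the numbers were 40 lower and 9 higher. Both comparisons share the members of -3_2. Below 20 CPM in both -1_2 and -2_2 were Cyp26b1, Epcam, Erbb2, Irs1, Kansl1l, Lgals4, Sct and Tff3. These higher genes passed the minimum only through -3_2, which fixed their direction in members. Lower genes below 20 CPM in -3_2, among them Actg2, Cnn1 and Stmn2, could in turn not have been called higher. The same count for -1_2 against both others gave 22 lower (0.381%) and 10 higher (0.173%), and for -2_2 it gave 17 lower (0.294%) and 2 higher (0.0346%). Against -1_2 alone 2.47% of genes were at least 2-fold higher and 1.71% lower in -3_2, and against -2_2 alone 1.26% were higher and 0.883% lower. Between -2_2 and -1_2 the same fold was passed upwards by 0.727% and downwards by 0.779%. At 1.5-fold, 4.62% of genes were higher and 2.53% lower in -3_2 than in both. At any size of difference, 46.6% of genes were higher and 29.1% were lower in -3_2 than in both. Because of that background, only differences of at least 2-fold are counted for the lists, unless stated.

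Contractile genes were among those with the lowest ratios. Actg2, the enteric smooth muscle actin, stood at 211.9 CPM in -1_2 (176 UMIs), 178.2 CPM in -2_2 (163 UMIs) and 3.78 CPM in -3_2 (13 UMIs). The log2 ratio of -3_2 was -5.81 against -1_2 (-6.75 to -5.0) and -5.56 against -2_2 (-6.50 to -4.74). Cnn1, which encodes calponin, had 47 and 30 UMIs in -1_2 and -2_2 and none in -3_2. With its count in -3_2 set to a floor of 3, Cnn1 was 64.8-fold lower than in -1_2 and 37.6-fold lower than in -2_2. The upper limits of its log2 ratios were -5.66 and -4.84. Tagln, an actin-binding protein of smooth muscle, stood at 260.1, 211.0 and 33.5 CPM, and its log2 ratios were -2.96 and -2.66. Acta2, the actin of vascular and visceral smooth muscle, stood at 446.8, 342.2 and 107.1 CPM, with log2 ratios of -2.06 (-2.27 to -1.85) and -1.68 (-1.90 to -1.45). Des, the intermediate filament desmin, stood at 34.9, 25.1 and 4.66 CPM. In each of these genes -3_2 lay below both others by more than these differed from each other, although Cnn1, Acta2 and Tagln were also lower in -2_2 than in -1_2, with log2 ratios of -0.79 (-1.499 to -0.10), -0.38 (-0.61 to -0.16) and -0.30 (-0.59 to -0.015).

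Of 15 genes on a smooth muscle list, 12 passed the CPM minimum, 7 were at least 2-fold lower and none was at least 2-fold higher. Beside the genes above, these were the light chain gene Myl9 (222.8, 218.7 and 103.4 CPM) and the tropomyosin gene Tpm2 (256.5, 255.8 and 126.1 CPM). The median log2 ratios of the list were -1.18 and -1.05, against 0.08 and 0.09 for all tested genes. The list did not move as one. Synpo2, an actin-bundling protein of muscle, stood at 175.8, 197.9 and 281.8 CPM and was higher in -3_2, and Mylk, the myosin light chain kinase, stood at 386.6, 354.2 and 334.2 CPM. Myocd, a coactivator of contractile genes, was at 15.7, 13.1 and 16.6 CPM. Etv1, listed for pacemaker cells, stood at 137.3, 162.9 and 104.8 CPM.

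**Figure D2:**
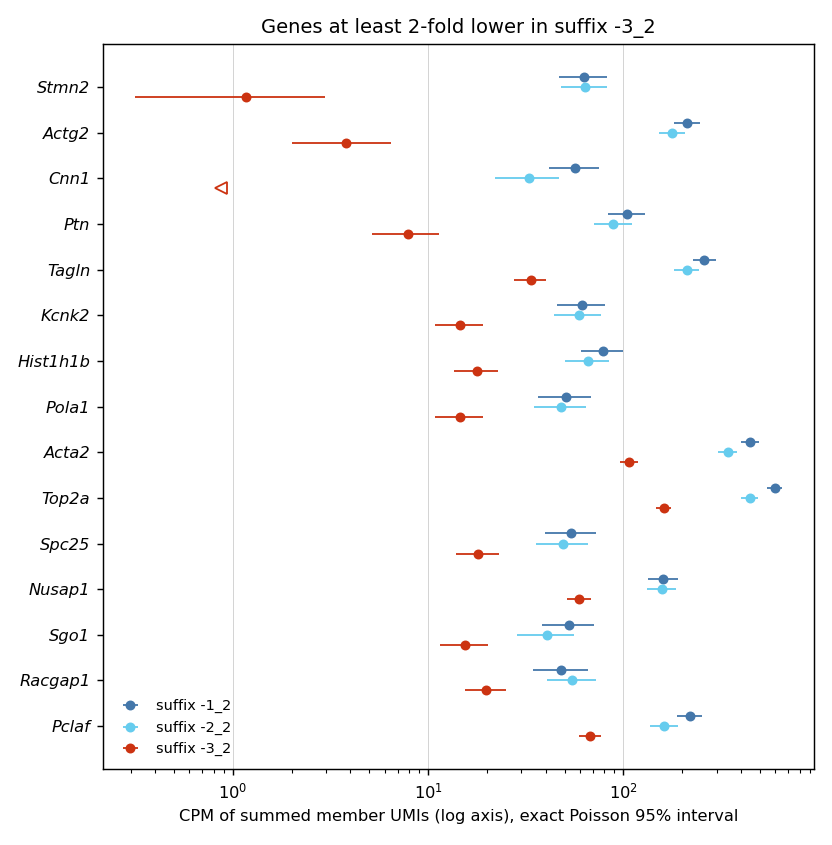
Levels of the 15 named genes that were at least 2-fold lower in -3_2, in CPM of summed member UMIs on a log axis. Points are the 3 suffixes, bars are exact Poisson 95% intervals, and the open triangle marks the floor of 3 counts for Cnn1, which had no UMI in -3_2. For Actg2 the suffixes -1_2 and -2_2 stand at 211.9 and 178.2 CPM, and -3_2 at 3.78 CPM.

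A UMI of Actg2, Myh11, Cnn1 or Des was found in 73.8% of members of -1_2 (66.9% to 79.9%), 65.7% of -2_2 (59.1% to 71.8%) and 14.3% of -3_2 (12.02% to 16.7%). Cells with 5 or more such UMIs numbered 6, 5 and 0, and those of -1_2 held 98 of its 323 such UMIs (30.3%), against 11.7% in -2_2. The largest number in a member of -1_2 was 49 UMIs. Members with and without such a UMI had median marker counts of 8 and 7 in -1_2, 7 and 7 in -2_2, and 11 and 9 in -3_2. Pdgfra was lower in those with such a UMI, at 570.6 against 755.2 CPM in -1_2. It stood at 660.8 against 726.1 CPM in -2_2 and 676.0 against 787.1 CPM in -3_2. Bmp5 stood at 85.8 against 119.2, 87.9 against 96.6 and 146.6 against 127.0 CPM, so it was lower only in -1_2 and -2_2.

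Levels were also read in cells without the rule genes. These were kept cells with no Pdgfra UMI and at most 1 marker UMI, and numbered 1036 in -1_2, 1179 in -2_2 and 36 in -3_2. After every cell had been reduced to 2000 UMIs, Actg2 was found in 38.0%, 30.1% and 0.901% of members, and in 29.3%, 32.3% and 5.56% of the unmarked cells. Without that reduction it was found in 105 of 187, 109 of 230 and 12 of 891 members. The interval for members was 30.99% to 45.3% in -1_2 and 24.3% to 36.5% in -2_2, and for unmarked cells 26.6% to 32.2% and 29.7% to 35.1%, so the intervals overlapped within each suffix. How far Actg2 UMIs in members came from other cells was not tested. Tagln was found in 34.8%, 29.3% and 3.27% of members and in 50.2%, 47.2% and 25% of unmarked cells. In the unmarked cells Tagln stood at 435.3, 390.4 and 250.7 CPM, and Des at 44.3, 44.8 and 11.4 CPM, from 2 UMIs in -3_2. Cnn1 stood at 32.9 and 31.4 CPM in -1_2 and -2_2 and had no UMI in -3_2. Differences were smaller for Acta2 (539.8, 509.0 and 444.4 CPM), Myl9 (285.8, 283.4 and 273.5 CPM) and Tpm2 (370.7, 359.3 and 421.6 CPM). Of the 22 genes higher in members of -3_2, 21 were also higher in its unmarked cells than in those of both others, against 54.1% of all tested genes, and 10 of them by 2-fold, against 6.99%. The exception was Irs1, with no UMI in the 36 unmarked cells of -3_2. The 22 include the genes that passed the minimum only through members of -3_2. Among all kept cells outside the rule, the 22 higher and 37 lower genes all had the same direction as in members, against 56.4% of tested genes higher and 37% lower. By 2-fold it was 17 and 32 of them, against 7.99% and 2.7%, and 632 of those cells in -3_2 lay just outside the rule. Only 29 kept cells in the 3 suffixes had 5 or more UMIs of endothelial, immune, epithelial or enteric neural markers, so no lineage that should lack these genes was large enough to set a background.

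**Figure D3:**
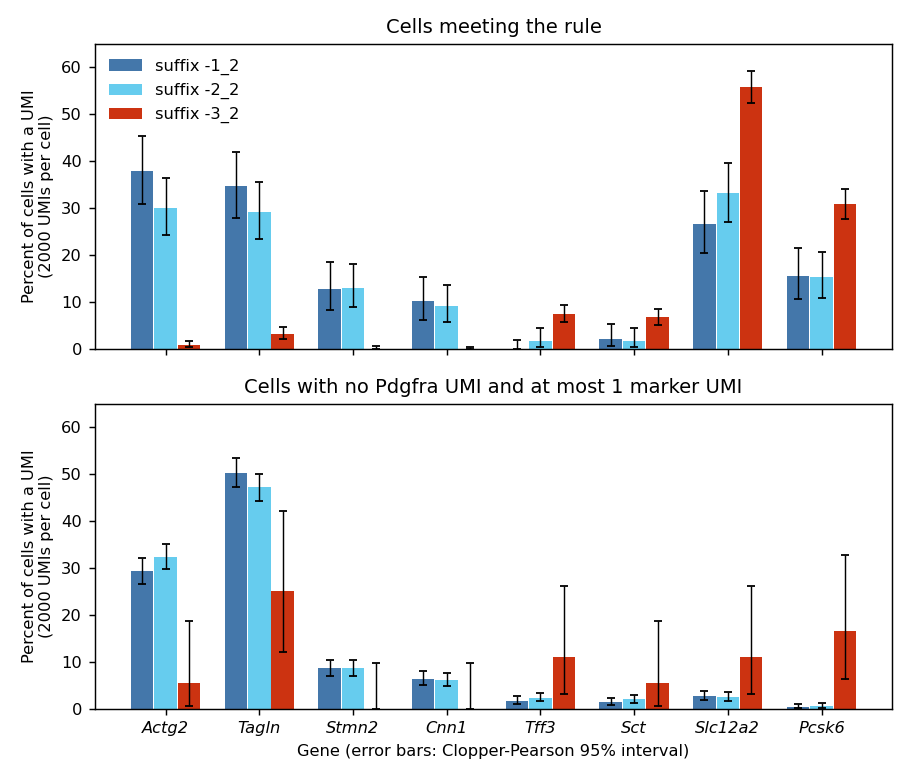
Percentage of cells with a UMI of each gene after reduction to 2000 UMIs per cell, for members (upper panel) and for cells with no Pdgfra UMI and at most 1 marker UMI (lower panel, with 36 cells in -3_2). Bars are the 3 suffixes and error bars are Clopper-Pearson 95% intervals. Actg2 is in 38.0% and 30.1% of members and 29.3% and 32.3% of unmarked cells in -1_2 and -2_2, while Slc12a2 is found in a larger share of members than of unmarked cells in each suffix.

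Stmn2, a microtubule regulator of neurons, stood at 62.6 CPM in -1_2, 63.4 in -2_2 and 1.16 in -3_2, from 52, 58 and 4 UMIs. Its log2 ratios were -5.75 (-7.68 to -4.31) and -5.77 (-7.69 to -4.33). Gap43, a protein of growing axons, stood at 24.1, 36.1 and 3.49 CPM. On a list of 13 enteric neural genes, 2 passed the minimum, of which Stmn2 was lower. The second, the GDNF coreceptor gene Gfra1, stood at 13.3, 23.0 and 27.4 CPM. The summed CPM of the list was 155.3, 168.4 and 39.3, and Elavl4, an RNA-binding protein of neurons and a defining marker, had no UMI in members of -3_2. Stmn2 was found in 12.8%, 13.1% and 0.113% of members at 2000 UMIs, and in 8.62%, 8.62% and 0% of unmarked cells (0 of 36 cells, with an upper limit of 9.74%). The part of neuronal RNA from other cells in these values was not tested.

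The remaining lower genes were mixed. Ptn encodes pleiotrophin, a secreted growth factor, and stood at 104.8, 88.6 and 7.86 CPM, with log2 ratios of -3.74 (-4.42 to -3.10) and -3.49 (-4.18 to -2.85). In contrast with Actg2, Ptn was not low in the unmarked cells of -3_2, where it stood at 729.3 CPM against 499.4 and 518.3 in -1_2 and -2_2. Kcnk2, a potassium channel gene, stood at 61.4, 59.0 and 14.6 CPM. Dcn, the matrix proteoglycan decorin, stood at 202.3, 136.7 and 64.3 CPM, and Col14a1, a fibril-associated collagen, at 106.0, 59.0 and 25.9 CPM. On a list of 18 genes of other mesenchyme, 6 passed the minimum, 1 (Dcn) was at least 2-fold lower, and Lum, another proteoglycan, stood at 267.3, 244.9 and 165.1 CPM. The 6 defining fibroblast markers had a UMI in 50.3%, 46.5% and 30.2% of members.

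Cell cycle genes were the second large group. Top2a, the topoisomerase of dividing cells, stood at 594.9 CPM in -1_2, 443.9 in -2_2 and 160.7 in -3_2, with log2 ratios of -1.89 (-2.07 to -1.71) and -1.47 (-1.65 to -1.28). Pclaf, a clamp-associated replication factor, stood at 219.2, 161.8 and 67.8 CPM. Hist1h1b, a linker histone gene, stood at 78.3, 65.6 and 17.8 CPM, and Pola1, a subunit of DNA polymerase alpha, at 50.6, 48.1 and 14.6 CPM. Genes of the spindle and kinetochore were also in the lower group, among them Nusap1 (160.2, 157.4 and 59.4 CPM), Spc25 (54.2, 49.2 and 18.1 CPM), Sgo1 (53.0, 40.5 and 15.4 CPM) and Racgap1 (48.2, 54.7 and 19.8 CPM). On a list of 21 cycling genes, 18 passed the minimum, and 3 of them (Top2a, Ube2c and Cenpe) were at least 2-fold lower than in both. All 18 were lower than in both at any size, against 29.1% of all tested genes, and the list medians were -1.05 and -0.62. The summed CPM of the list was 2038, 1584 and 865.3.

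The share of dividing cells was described at equal depth. A UMI of Mki67 or Top2a was found at 2000 UMIs in 19.3% of members of -1_2 (13.9% to 25.6%), 17.0% of -2_2 (12.4% to 22.5%) and 9.80% of -3_2 (7.92% to 11.9%). Without the reduction the shares were 24.1%, 20.4% and 13.2%. The order depended on the rule. With at least 3 Pdgfra and 5 marker UMIs the shares were 11.4%, 16.3% and 10.3%, and with members chosen after the reduction they were 7.25%, 13.8% and 7.42%. In both settings the counting interval of -3_2 overlapped those of -1_2 and -2_2. In the unmarked cells the share was 36.7%, 33.4% and 52.8%, and Top2a stood at 819.0, 712.5 and 1253 CPM. Of the 37 lower genes, 20 were lower in the unmarked cells of -3_2 than in those of both others, against 38.1% of all tested genes, and 5 by 2-fold, against 5.35%. Another 16 were higher there, and cycling genes were among them. The cell cycle inhibitor gene Cdkn1c, named on an earlier list of PDGFRA-high genes, stood at 1144, 1207 and 1618 CPM in members.

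Promoters of the lower genes were read from RefSeq (GRCm38.p6), as 250 bases before and 50 after each start. The cell cycle homology region (CHR, TTTGAA on either strand) and the CCAAT box, elements known from promoters of mitotic genes, were searched for. CHR was found in 8 of 18 matched cycling genes, against 20.2% of 27025 genes in the table, and CCAAT in 16 of 18, against 41.1%. That list holds known cycling genes, so these counts do not bear on a difference between suffixes. Among the 37 lower genes, 26 matched. Of these, 10 (38.5%) held CHR and 17 (65.4%) held CCAAT, against 13.4% and 42.9% of 4576 matched tested genes. Of 17 matched higher genes, 3 held CHR and 5 held CCAAT. The CArG box, the element bound by serum response factor, was in 1 of 11 matched smooth muscle genes, against 1.81% of all genes. The entries for Ube2c, a ubiquitin-conjugating enzyme of mitosis, Prc1, a spindle midzone protein, and Myl9 were picked because they hold these letters, and show where they lie. Capitals mark CHR and CCAAT on either strand in the first 2 and the CArG box in the third.
Ube2c, chr2:164769691-164769915, + strand: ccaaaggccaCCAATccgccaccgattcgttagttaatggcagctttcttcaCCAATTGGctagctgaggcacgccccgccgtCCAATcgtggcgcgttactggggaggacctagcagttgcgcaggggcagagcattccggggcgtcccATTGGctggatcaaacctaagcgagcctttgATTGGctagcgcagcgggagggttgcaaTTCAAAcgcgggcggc
Prc1, chr7:80294404-80294461, + strand: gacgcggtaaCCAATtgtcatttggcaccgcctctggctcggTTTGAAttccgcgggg
Myl9, chr2:156775293-156775322, + strand: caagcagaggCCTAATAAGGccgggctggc
The Ube2c stretch ends 14 bases and the Prc1 stretch 15 bases before the start, and the Myl9 stretch lies 171 to 142 bases before it. In members, Ube2c stood at 208.3, 205.5 and 100.7 CPM and Prc1 at 151.7, 114.8 and 55.6 CPM. A match of letters is a description and not a site.

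Among genes higher in -3_2, Slc12a2 and Pcsk6 were found in a larger share of members than of unmarked cells in each suffix, though for Pcsk6 the intervals overlapped in -3_2. Slc12a2, the sodium-potassium-chloride cotransporter, stood at 187.9 CPM in -1_2, 203.4 in -2_2 and 470.2 in -3_2. Its log2 ratios were 1.32 (1.09 to 1.57) and 1.21 (0.99 to 1.44). At 2000 UMIs it was found in 26.7%, 33.2% and 55.9% of members, and in 2.71%, 2.47% and 11.1% of unmarked cells. Pcsk6, a protease that activates growth factor precursors, stood at 81.9, 87.5 and 202.6 CPM, with log2 ratios of 1.31 (0.95 to 1.69) and 1.21 (0.88 to 1.56). It was found in 15.51%, 15.3% and 30.9% of members (27.8% to 34.0% in -3_2) and in 0.484%, 0.597% and 16.7% of unmarked cells (6.37% to 32.8% in -3_2). For both genes the intervals of the shares of -3_2 lay above those of the other 2 suffixes among members.

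Several others encode receptors, transporters and enzymes. Slco2a1, a prostaglandin transporter, stood at 51.8, 57.9 and 117.0 CPM, and Cyp26b1, which degrades retinoic acid, at 7.23, 17.5 and 41.1 CPM. These were the 2 higher genes of 7 that passed the minimum on a list for retinoids and prostaglandins. Cyp26b1 passed it only through -3_2, so the minimum fixed its direction. Axl, a receptor tyrosine kinase, stood at 74.7, 63.4 and 152.0 CPM, and Plxnd1, a semaphorin receptor, at 19.3, 25.2 and 55.3 CPM. Adamts9, a metalloprotease of the matrix, stood at 77.1, 82.0 and 174.4 CPM. Hoxa3 was the higher gene of 13 on the Hox list, at 27.7, 26.2 and 61.1 CPM. Mt1, a metallothionein, stood at 56.6, 54.7 and 121.4 CPM, Trp53inp1, a p53-induced gene, at 25.3, 25.2 and 58.8 CPM, and Smg1, a kinase of nonsense-mediated decay, at 16.9, 23.0 and 51.8 CPM. Prom1 stood at 25.3, 20.8 and 56.5 CPM, Spaca6 at 47.0, 44.8 and 101.3 CPM, and the long noncoding RNA Gm26917 at 102.4, 72.2 and 223.0 CPM. In each of these genes -3_2 lay above both others and the order of -1_2 and -2_2 varied.

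**Figure D4:**
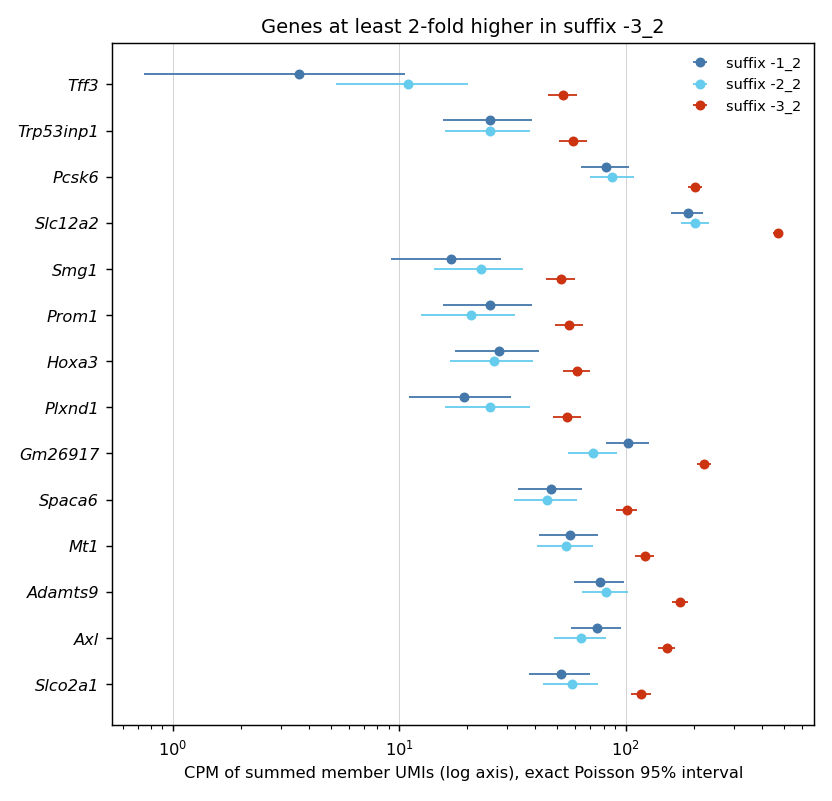
Levels of the 14 named genes that were at least 2-fold higher in -3_2, in CPM of summed member UMIs on a log axis. Points are the 3 suffixes and bars are exact Poisson 95% intervals. Slc12a2 is at 187.9, 203.4 and 470.2 CPM, and Tff3 rests on 3 and 10 UMIs in -1_2 and -2_2.

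Tff3 and Sct, transcripts of epithelial cells, had the largest ratios among the higher genes. Tff3, a peptide of goblet cells, stood at 3.61, 10.9 and 52.7 CPM, from 3, 10 and 181 UMIs, with log2 ratios of 3.87 (2.30 to 6.16) and 2.27 (1.36 to 3.35). Sct, the gut hormone secretin, stood at 6.02, 7.65 and 48.0 CPM. Epcam, the epithelial adhesion molecule, stood at 12.04, 16.4 and 34.4 CPM, and Lgals4, an epithelial galectin, at 14.5, 14.2 and 32.6 CPM. On a list of 21 epithelial genes 3 passed the minimum (Epcam, Lgals4 and Tff3), all called higher, and the summed CPM was 148.1, 131.2 and 300.7. These 3 and Sct lay below 20 CPM in both -1_2 and -2_2 and passed the minimum only through -3_2. The minimum thus fixed their direction in advance, and that direction is no evidence. A list of 5 enterocyte genes, none of them past the minimum, summed to 47.0, 40.5 and 56.5 CPM. Tff3 was found at 2000 UMIs in 0%, 1.75% and 7.55% of members and in 1.74%, 2.39% and 11.1% of unmarked cells. The unmarked value of -3_2 rests on 4 of 36 cells (3.11% to 26.1%), and no expression of Tff3 by members is read from these shares. The 6 defining epithelial markers had a UMI in 20.3%, 16.1% and 30.0% of members, and cells with 3 or more such UMIs numbered 2, 1 and 7.

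Signals of other lineages differed between suffixes as well. The immune list summed to 54.2, 53.6 and 165.4 CPM with none of its 15 genes past the minimum, and its defining markers had a UMI in 9.63%, 6.96% and 17.8% of members. The endothelial list, most of it Ramp2, summed to 260.1, 282.1 and 356.6 CPM. The 5 defining endothelial markers summed to 14.5, 17.5 and 46.0 CPM and had a UMI in 5.35%, 6.96% and 14.8% of members. The mesothelial list, most of it Aldh1a2, summed to 252.9, 265.7 and 383.1 CPM. Erythroid genes summed to 4314, 1512 and 3832 CPM, so -2_2 was lowest in the sum. Counted per cell, -3_2 was highest. The 3 defining erythroid markers had a UMI in 82.4%, 76.5% and 96.0% of members, with medians of 1, 1 and 3 UMIs. In kept cells outside the rule the erythroid sum was 1632, 1817 and 3744 CPM. Mitochondrial genes summed to 21325, 22338 and 29609 CPM, and ribosomal protein genes to 247416, 246515 and 221542 CPM. The part of these signals in the higher and lower genes was not tested. Without members that held an epithelial UMI, which left 109, 134 and 321 cells, 9 of the 22 higher and 29 of the 37 lower genes still passed 2-fold against both. Epcam, Lgals4 and Tff3 could not pass, because members with their UMIs were left out. Slc12a2 then had log2 ratios of 1.32 and 1.04 and Pcsk6 of 1.40 and 1.17, while Gm26917 had 0.45 and 0.97, Plxnd1 0.83 and 0.82, and Adamts9 0.94 and 1.23.

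Signalling genes outside the rule differed by less. Bmp4, the main BMP ligand of gut mesenchyme, stood at 988.7, 1111 and 1342 CPM, with log2 ratios of 0.44 (0.33 to 0.55) and 0.27 (0.17 to 0.37). Bmp2 stood at 155.3, 215.4 and 324.9 CPM, with log2 ratios of 1.06 (0.80 to 1.34) and 0.59 (0.37 to 0.82). Of 14 BMP ligands and antagonists 7 passed the minimum and none was at least 2-fold different from both. The antagonist Fst stood at 95.1, 73.3 and 65.2 CPM. Among 14 receptors and targets of BMP, 7 passed and none was at least 2-fold different. The receptor Bmpr2 stood at 68.6, 70.0 and 132.5 CPM and the target Id2 at 284.2, 328.0 and 511.8 CPM, and both were higher in -3_2 than in the others.

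Hedgehog and WNT lists held genes that differed in both directions. On the PDGF list Pdgfrb stood at 73.5, 79.8 and 84.7 CPM, with intervals of both log2 ratios that covered 0. Pdgfa stood at 60.2, 92.9 and 73.4 CPM, so -3_2 lay between the others. Ptch1, the Hedgehog receptor and target, stood at 1057, 1052 and 1157 CPM, while Gli1, a transcriptional target, stood at 110.8, 76.5 and 69.0 CPM. None of 7 Hedgehog genes, 8 WNT genes and 2 PDGF genes past the minimum was at least 2-fold different. The log2 ratios of the summed CPM were 0.15 and 0.16 for Hedgehog and 0.01 and -0.06 for WNT, sums to which Ptch1 and Sfrp1 contributed most. Foxf2, a forkhead factor of gut mesenchyme, stood at 84.3, 100.6 and 144.7 CPM, with log2 ratios of 0.78 (0.42 to 1.16) and 0.52 (0.20 to 0.86). Rspo3, a secreted enhancer of WNT signalling, stood at 25.3, 23.0 and 11.9 CPM, with log2 ratios of -1.08 (-1.88 to -0.25) and -0.94 (-1.74 to -0.11). Wnt4 stood at 13.2, 23.0 and 30.9 CPM. Of 14 genes for FGF, Notch and TGF-beta, the receptor Notch2 (31.3, 25.2 and 11.4 CPM) was lower and none was higher. Among 9 guidance genes Nrp2 (32.5, 29.5 and 11.4 CPM), a coreceptor for semaphorins and VEGF, was lower.

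An earlier look at these data had shown a list of genes high in PDGFRA-high cells. Of these, 12 of 12 that passed the minimum were higher in -3_2 than in both, against 46.6% of all tested genes. By 2-fold it was 1 of them, against 0.381%. The list was chosen on these data and is no independent evidence. Ctxn3 stood at 27.7, 32.8 and 63.5 CPM, Adamts18 at 45.8, 51.4 and 100.7 CPM, and Elovl7 at 47.0, 52.5 and 99.6 CPM. Lists of matrix genes (31 tested), immediate early and stress genes (29), hypoxia and glycolysis genes (22), mesenchymal factors (17), fetal growth genes (15) and cycle inhibitors (5) held none at least 2-fold different from both. The histone list had 7 tested genes, of which 2 were lower.

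**Figure D5:**
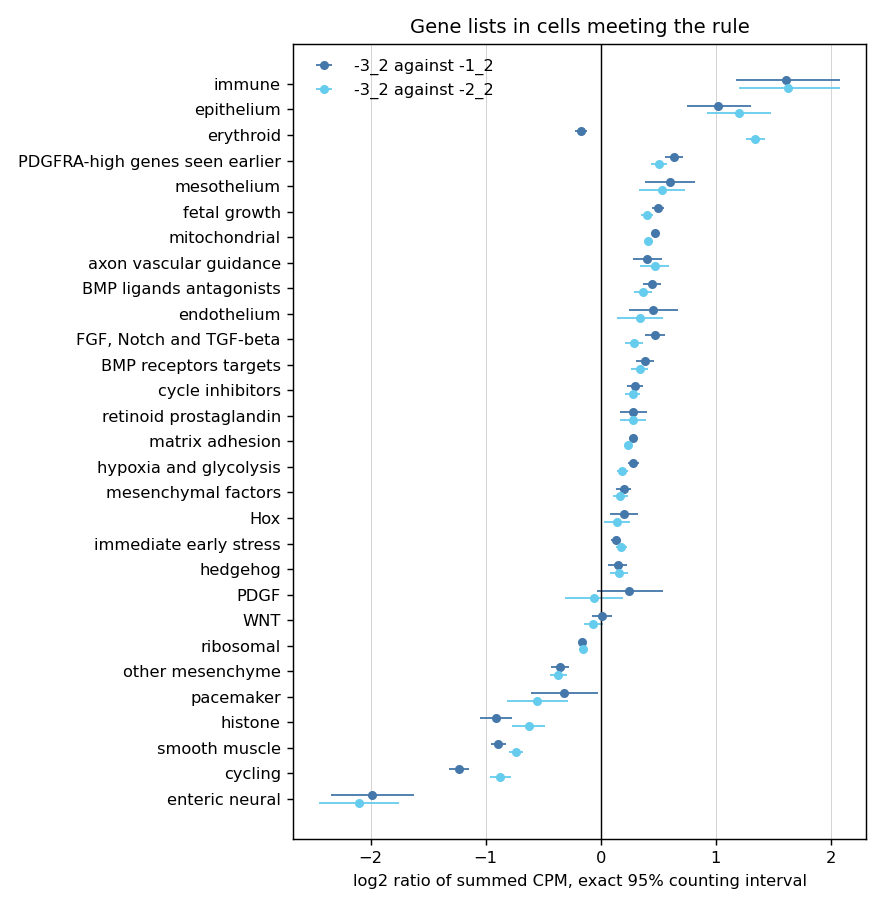
Log2 ratio of the summed CPM of gene lists in members of -3_2 against -1_2 and against -2_2, with exact 95% counting intervals. The rule genes, enterocyte genes and sex-specific transcripts are not shown. Both ratios share the members of -3_2. Enteric neural, cycling, smooth muscle and histone genes lie furthest below 0, immune and epithelial genes lie furthest above it against -1_2, and erythroid genes are above it against -2_2 but not against -1_2.

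Barcodes ending in _1 gave the same comparison in other cells. These cells were deeper, so each was reduced to 3500 UMIs before the rule was applied, which left 89, 56 and 842 members of -1_1, -2_1 and -3_1, or 3.62%, 2.70% and 72.0% of cells deep enough. No label links these suffixes to those ending in _2, and their ages may differ. Of the 22 higher genes 20 were higher in -3_1 than in both others, against 29.9% of all tested genes, and 8 by 2-fold, against 1.64%. Of the 37 lower genes 30 were lower, against 35.2% of all, and 16 by 2-fold, against 1.54%. The other 7 were Cavin3, Des, Hist1h2ae, Notch2, Nusap1, Rtn1 and Spc25. Des stood at 35.3, 107.1 and 83.5 CPM, with a log2 ratio of 1.24 (0.38 to 2.26) against -1_1. Actg2 stood at 112.4, 158.2 and 18.3 CPM, Slc12a2 at 237.6, 224.5 and 431.3 CPM, and Pcsk6 at 138.0, 112.2 and 285.7 CPM. Stmn2, counted as lower, stood at 6.42, 5.10 and 2.71 CPM, from only 2, 1 and 8 UMIs. Its log2 ratios were -1.24 (-3.57 to 2.03) and -0.91 (-3.81 to 4.56), so its direction was not resolved there. Among the higher genes, which again include those that passed the minimum only through -3_2, Smg1 was below both others, at 64.2, 86.7 and 63.5 CPM.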

How the data were processed

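The authors deposited 1 matrix of raw UMI counts per gene and cell for all 6 samples, with 24568 gene symbols and 13127 barcodes. Cell Ranger 2.1.1, Seurat and mm10 are named in the submitters' processing notes, with no role or order. The annotation is a detail not given in the sources used here, as is the cell filter. Barcodes end in 1 of 6 suffixes that no label names.

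Member UMIs were summed per suffix (830400 in -1_2, 914635 in -2_2 and 3434804 in -3_2) and divided by these totals to give CPM. Ratios carry exact conditional binomial intervals, levels exact Poisson and shares Clopper-Pearson intervals, at 95% (scipy 1.17.1, numpy 2.4.6). A count of 0 was set to a floor of 3 counts. No count model was fitted, because there are no replicates. To compare shares at 1 depth, 2000 UMIs were drawn at random from each cell, and shallower cells (0, 1 and 3 members) were left out. The ratio step was tested on simulated data. Scrublet in scanpy 1.11.5 called 36 of 7187 cells (0.501%) as doublets, 14 of them members, and only 0.154% in -2_2, so doublets may remain. They were kept.

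Named genes were the 15 highest and 15 lowest by the smaller of both log2 ratios, among genes with a mean of at least 20 CPM, at least 50 CPM in 1 suffix and at least 2-fold in 1 direction, a rule met by 14 and 25 genes. Up to 4 genes per list and the rule genes were added. Other called genes and list members named in the text were chosen after their values were seen. Members and lists were chosen with earlier results of these data known. Lists with no gene at least 2-fold different, and the sex-specific transcripts (Xist without Y-linked UMIs in 82.4%, 82.2% and 84.1% of members), are given as counts. The level of Xist was 1805, 2311 and 3249 CPM. Alternatives were other rules for members, cell filters, scalings and CPM minimums. Results for some withheld genes are not reported here.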

Additional observations from a re-analysis of the deposited data

How the results depend on the processing

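No paired analysis was possible because no suffix is tied to a sample and no result comes from a test. The counts of genes at least 2-fold higher and lower in -3_2 (22 and 37) were 50 and 41 with at least 3 Pdgfra and 5 marker UMIs, 41 and 90 with at least 1 and 2, and 52 and 37 with members chosen after reduction to 2000 UMIs. They were 39 and 58 without mitochondrial, ribosomal and haemoglobin genes, 9 and 40 with median-ratio scaling, 141 and 124 at a minimum of 5 CPM, 8 and 15 at 50 CPM, and 267 and 146 at 1.5-fold. Without members holding cycling UMIs they were 17 and 21, and without those holding smooth muscle UMIs 50 and 36. Top2a in the former setting, and Actg2, Cnn1 and Des in the latter, had no UMI left and could not pass. Choices made after seeing the data gave 43 and 73 (no epithelial UMI) and 30 and 46 (6 to 12 marker UMIs). Genes shared with the first lists were 10 and 21 under the stricter rule and 4 and 13 with members chosen after reduction. No gene passed from one list to the other under any setting run. These 2 settings left 69 to 87 cells in -1_2 and -2_2. The cause of the changes between settings was not tested.

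The share of members with a Mki67 or Top2a UMI was 12.5% in -3_2 at 3000 UMIs. With Mki67 alone it was 6.42%, 3.93% and 4.05% in -1_2, -2_2 and -3_2. The stricter rule gave 11.4% in -1_2, and members chosen after reduction gave 7.25% in -1_2 and 7.42% in -3_2.

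Of 3122 values of named genes, 2665 stayed within the interval of the first ratio, 437 left it and 20 turned, all in the genes named next. Of 668 list values 499 stayed, 169 left and none turned. Under the stricter rule the log2 ratio against -2_2 was 0.73 for Arhgap11a and Sgo1 and 0.19 for Prc1, and against -1_2 it was 0.0088 for Ckap2 and 0.38 for Fbxo5. With members chosen after reduction it was, against -2_2, 0.71 for Arhgap11a, 1.12 for Ckap2, 0.0040 for Etaa1, 0.80 for Hist1h1b, 0.18 for Prc1 and 0.61 for Sgo1, and against -1_2, 0.34 for Ccnd1, 0.64 for Rrm2 and 0.19 for Ube2c. Without members holding cycling UMIs it was, against -1_2, 1.45 for Fbxo5, 0.091 for Hist1h2ae and 0.73 for Rrm2, and against -2_2, 2.08 for Hist1h1b and 0.57 for Prc1. Without members holding smooth muscle UMIs it was 0.38 for Ccnd1 against -1_2. Slco2a1 came to 0.14 against -1_2 in the last setting. Actg2 stayed at -5.29 or below and Stmn2 at -4.30 or below in every setting that gave a value.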
